A study of Mus musculus with 8 samples.

Results

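Motile cilium axoneme genes were followed in whole lungs of mice with beta-catenin stabilized or knocked out. The set holds every gene with a single annotated symbol beginning Dnah, Dnaic, Dnali, Tekt, Rsph or Spef and a digit, together with Hydin, Cdhr3, Ccdc39, Ccdc40, Spag6, Spag16, Spag17 and Ak7. It came to 39 of the 19937 named genes on the array, namely 18 dynein arm genes, 5 radial spoke genes, 5 tektins, 7 central pair genes and 4 others. The rule goes by name, but it was set with earlier results of these data known. Total RNA from untreated lungs at postnatal day 21 was hybridised to 8 Affymetrix arrays, of which 4 are labelled beta-catenin stabilized and 4 beta-catenin knockout, each called a biological replicate. All 8 samples are recorded as male. The labels name neither the altered exons nor a Cre driver, nor the cell types in which the alleles were active. Wild-type lungs were not analysed here, so each difference is between 2 modified genotypes.

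The axoneme is the microtubule core of a motile cilium, a ring of outer doublets around a central pair. Dynein arms on the doublets hydrolyse ATP and slide neighbouring doublets, radial spokes relay signals between the central pair and the arms, and tektins are filamentous proteins built into the doublet wall. In the lung, multiciliated cells of the conducting airway carry these structures and move mucus, and human mutations in many of the genes cause primary ciliary dyskinesia. Several families also have members used mainly in the sperm flagellum.

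Arrays correlated at 0.993 to 0.996 within a group and at 0.987 to 0.993 between groups over all genes. Xist and the recorded sex did not match in 4 arrays, stabilized replicates 1 and 4 and knockout replicates 1 and 3, so each group held 2 arrays of either pattern. Ctnnb1, which encodes beta-catenin, differed by 0.09 ± 0.06 on the log2 scale (SE, limma adjusted p = 0.42), and because the altered exons are not given this does not check the genotype labels. Olfactory receptor genes, known mainly from the nose, were used to describe what a probe set reads with little transcript. The 1027 of them had a median of 3.49 and a 95th percentile of 5.23 on the log2 scale. The mean over 8 arrays was above that 95th percentile for 31 of the 39 axoneme genes.

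Most axoneme genes were lower in stabilized than in knockout lungs, with tektins the class with the fewest calls (2 of 5, and 0 after repeated quantile normalization). Of the 39 genes, 28 (71.8%) passed as lower, 0 as higher and 11 in neither direction (limma adjusted p under 0.05). Among all genes tested 9.62% passed, 4.96% as lower and 4.65% as higher. At an unadjusted p under 0.05 (limma) the counts were 30 lower and 0 higher. The share of all genes at that threshold was not counted, so these counts have no background and the shares above do not apply to them. The median difference, stabilized minus knockout, was -0.49 on the log2 scale, against -0.01 over all genes. All 4 stabilized arrays lay below all 4 knockout arrays in 28 members, compared with 7.82% of all genes, and above them in 0 members, compared with 9.06%. By array, the median level of the 39 genes ran from 5.49 to 5.67 in stabilized and from 6.11 to 6.24 in knockout lungs. In whole lung, fewer ciliated cells and less RNA per ciliated cell cannot be told apart.

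**Figure D1:**
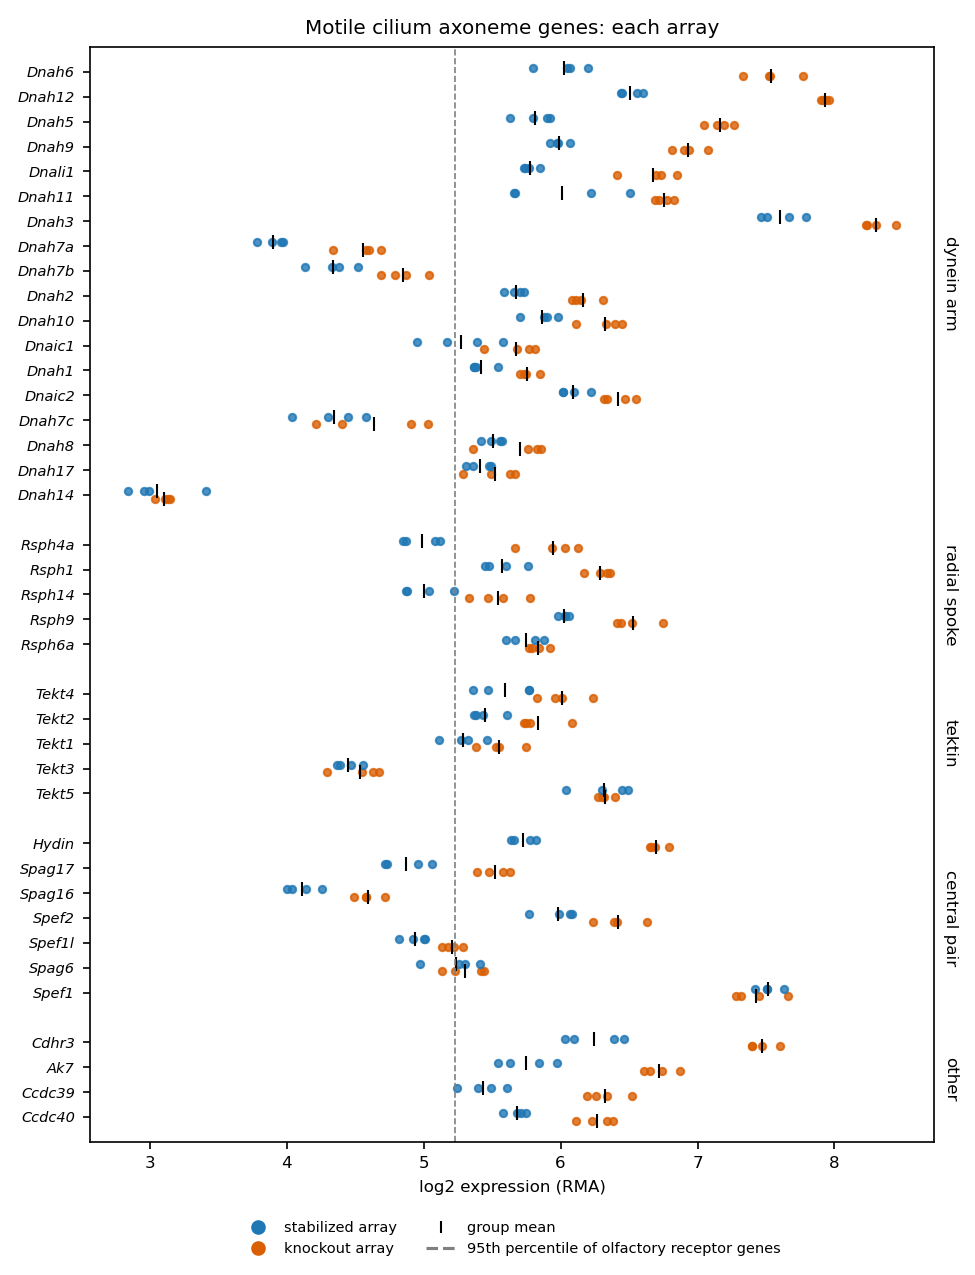
Log2 expression of each of the 39 axoneme genes in each array, grouped by structural class and ordered by difference. Blue points are the 4 stabilized arrays, orange points the 4 knockout arrays, ticks the group means, and the dashed line the 95th percentile of olfactory receptor genes at 5.23. In 28 genes every blue point lies left of every orange point.

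Calls were also counted within the arrays of each sex pattern. With only the 4 arrays that match the recorded sex, an alternative chosen after the data were seen, 16 axoneme genes were lower, against 1.16% of all genes in that fit. With only the other 4 arrays 17 were lower, against 2.27% of all genes. The 28 genes called with all arrays were negative in both of these fits. That could not turn out otherwise, since their stabilized arrays all lay below their knockout arrays. Of the other members, Dnah14, Dnah17, Rsph6a, Spag6, Spef1 and Tekt5 differed in sign between these fits. Xist as a covariate left 28 of the 28 called.

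Among the dynein arms, 13 of 18 genes fell and 0 rose, with a median difference of -0.50. The outer arm, the main motor of ciliary beating, is built on heavy chains of which Dnah5, Dnah9 and Dnah11 serve airway cilia. Values are given for replicates 1 to 4 in that order. Dnah5 read 5.92, 5.80, 5.63 and 5.90 in stabilized and 7.19, 7.05, 7.27 and 7.14 in knockout lungs. The groups were separated by 1.13 on the log2 scale, and the gene was 2.55-fold lower (difference -1.35 ± 0.08, SE, n = 4 per group, limma adjusted p = 1.6e-06). Dnah9 read 5.92, 5.97, 6.07 and 5.98 in stabilized and 6.90, 6.81, 7.08 and 6.94 in knockout lungs. It fell by 0.95 ± 0.07 (SE, limma adjusted p = 6.1e-06), again with no overlap between groups. Dnah11, whose heavy chain sits in the proximal part of the cilium, read 5.66, 6.51, 6.22 and 5.67 in stabilized and 6.72, 6.69, 6.78 and 6.83 in knockout lungs. Stabilized replicate 2 was nearest to the knockout arrays, replicates 1 and 4 were far below them, and replicate 3 lay between. The stabilized SD of 0.42 was correspondingly wide beside a knockout SD of 0.06, and the gene fell by 0.74 ± 0.16 (SE, limma adjusted p = 0.012). Stabilized replicates 1 and 4 are those whose Xist level goes against the recorded sex. Knockout replicates 1 and 3 have the same Xist pattern and read 6.72 and 6.78, beside 6.69 and 6.83 in replicates 2 and 4. The part of sex in the stabilized spread was not tested.

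The remaining outer-arm heavy chains, Dnah8 and Dnah17, are known mainly from the sperm flagellum and did not pass the test. Dnah8 read 5.49, 5.42, 5.56 and 5.57 in stabilized and 5.86, 5.76, 5.83 and 5.36 in knockout lungs, where replicate 4 lay below every stabilized array. Its difference was -0.19, with a 95% interval from -0.41 to 0.03, and without knockout replicate 4 it was -0.31 (limma adjusted p = 0.019). Dnah17 read 5.36, 5.31, 5.49 and 5.48 in stabilized and 5.29, 5.63, 5.49 and 5.67 in knockout lungs. The groups overlapped, at a difference of -0.11 with an interval from -0.30 to 0.08.

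Outside the outer arm, 8 of 10 heavy chains fell and the largest differences of the set were found. Dnah6, an inner-arm heavy chain, read 6.07, 6.20, 5.80 and 6.05 in stabilized and 7.33, 7.52, 7.53 and 7.77 in knockout lungs. It was 2.85-fold lower (difference -1.51 ± 0.10, SE, limma adjusted p = 3.3e-06), more than any other member. Dnah12 was 2.68-fold lower and had the tightest knockout arrays of any member. Its values were 6.45, 6.56, 6.60 and 6.44 in stabilized and 7.94, 7.92, 7.90 and 7.96 in knockout lungs (difference -1.42 ± 0.06, SE, limma adjusted p = 4.2e-07). The inner-arm genes Dnah2, Dnah10 and Dnah1 showed smaller decreases, with differences of -0.49 ± 0.07, -0.46 ± 0.09 and -0.34 ± 0.07 (SE). Dnah14 read 2.84 to 3.41 in stabilized and 3.04 to 3.15 in knockout lungs, below the median of the olfactory receptor genes, and did not pass (difference -0.06, interval -0.29 to 0.17).

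The Dnah7 genes are near-identical copies, so their probe sets may not tell them apart. Dnah7a and Dnah7b fell by 0.65 ± 0.08 and 0.51 ± 0.09 (SE). A dimmer probe set of Dnah7b gave -0.05 and did not pass when probe sets were tested singly. Dnah7c, at a difference of -0.30 with an interval from -0.67 to 0.07, did not pass. Knockout replicates 3 and 4 of Dnah7c read 4.91 and 5.03, and replicates 1 and 2 read 4.21 and 4.40, within the stabilized range of 4.04 to 4.58. The 3 genes had means below the 95th percentile of olfactory receptor genes. A pair of probe sets annotated to all 3 copies, which belong to no single member and were not tested, lay at 5.70 ± 0.17 against 6.40 ± 0.12 and at 4.36 ± 0.07 against 5.27 ± 0.18 (stabilized against knockout, SD, n = 4). In both, no stabilized array reached the lowest knockout array.

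The smaller dynein subunits moved less evenly. Dnali1, a light intermediate chain of inner arms, read 5.74, 5.77, 5.73 and 5.85 in stabilized and 6.73, 6.41, 6.85 and 6.70 in knockout lungs. It fell by 0.90 ± 0.09 (SE, limma adjusted p = 4.4e-05), close in size to Dnah9. The outer-arm intermediate chain gene Dnaic2 read 6.10, 6.02, 6.02 and 6.22 in stabilized and 6.47, 6.32, 6.34 and 6.55 in knockout lungs, a narrow separation. It fell by 0.33 ± 0.07 (SE, limma adjusted p = 0.015). Its partner Dnaic1 read 4.95, 5.17, 5.39 and 5.58 in stabilized and 5.68, 5.44, 5.81 and 5.77 in knockout lungs, where knockout replicate 2 lay below stabilized replicate 4. Dnaic1 did not pass (difference -0.40 ± 0.12, SE, limma adjusted p = 0.064), and passed without either of those arrays (lowest adjusted p = 0.021).

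Radial spoke genes fell in 4 of 5 cases, with a median difference of -0.54. Rsph4a, a component of the spoke head, read 4.85, 4.87, 5.12 and 5.08 in stabilized and 6.03, 6.13, 5.94 and 5.67 in knockout lungs. It was 1.94-fold lower (difference -0.96 ± 0.10, SE, limma adjusted p = 8.5e-05). Rsph1, also of the spoke head, read 5.45, 5.48, 5.60 and 5.76 in stabilized and 6.36, 6.17, 6.34 and 6.29 in knockout lungs, and fell by 0.71 ± 0.08 (SE). Rsph9, their partner in the head, read 6.03, 6.03, 6.06 and 5.98 in stabilized and 6.75, 6.44, 6.41 and 6.52 in knockout lungs. Its stabilized arrays spanned less than those of any other spoke gene (SD 0.03), and it fell by 0.51 ± 0.08 (SE). Rsph14 fell by 0.54 ± 0.10 (SE, limma adjusted p = 0.0059). Rsph6a, the spoke head protein of sperm, overlapped between groups, with 5.81, 5.67, 5.60 and 5.88 in stabilized and 5.77, 5.79, 5.84 and 5.92 in knockout lungs. Its difference of -0.09 had an interval from -0.25 to 0.07. Probe sets shared by Rsph3a and Rsph3b, spoke genes without a probe set of their own here, lay at 6.59 ± 0.44 against 7.55 ± 0.16 and at 7.17 ± 0.14 against 7.58 ± 0.05 (stabilized against knockout, SD, n = 4, not tested).

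Of the 5 tektins 2 fell, and the median difference of -0.26 was the smallest of the classes. Tekt4 read 5.36, 5.47, 5.77 and 5.77 in stabilized and 5.83, 6.01, 5.96 and 6.24 in knockout lungs. The groups were only 0.06 apart at their nearest arrays, and Tekt4 fell by 0.42 ± 0.11 (SE, limma adjusted p = 0.032). Tekt2 read 5.38, 5.61, 5.43 and 5.37 in stabilized and 5.78, 6.08, 5.73 and 5.75 in knockout lungs, and fell by 0.39 ± 0.09 (SE, limma adjusted p = 0.016). These calls were not firm. Repeated quantile normalization or the loss of stabilized replicate 1 left 0 tektins called, and the loss of stabilized replicate 2, knockout replicate 2, knockout replicate 3 or knockout replicate 4 left 1.

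Tekt1 did not pass, at 5.11, 5.32, 5.27 and 5.46 in stabilized and 5.53, 5.38, 5.55 and 5.75 in knockout lungs. Only stabilized replicate 4 reached into the knockout range, and the difference was -0.26 ± 0.09 (SE, limma adjusted p = 0.097). Tekt5, a tektin of sperm, read 6.45, 6.04, 6.30 and 6.49 in stabilized and 6.40, 6.32, 6.27 and 6.30 in knockout lungs, with the knockout arrays inside the stabilized range. Its difference was -0.0047 on the log2 scale, with an interval from -0.20 to 0.19. Tekt3 gave -0.09, with an interval from -0.28 to 0.10. Whether tektins differ from the other classes was not tested.

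Central pair genes fell in 5 of 7 cases, with a median difference of -0.44. Hydin, a large protein of a central pair projection, read 5.64, 5.66, 5.78 and 5.82 in stabilized and 6.66, 6.69, 6.79 and 6.65 in knockout lungs. The gap between the nearest arrays was 0.83, and the gene was 1.96-fold lower (difference -0.97 ± 0.07, SE, limma adjusted p = 3.6e-06). Spag17 read 4.72, 5.06, 4.73 and 4.96 in stabilized and 5.58, 5.39, 5.63 and 5.48 in knockout lungs, and fell by 0.65 ± 0.09 (SE). Spag16 read 4.14, 4.00, 4.04 and 4.26 in stabilized and 4.72, 4.58, 4.49 and 4.58 in knockout lungs, and fell by 0.48 ± 0.08 (SE). Both genes encode proteins of the central apparatus, and both had means below the 95th percentile of olfactory receptor genes although their groups did not overlap. Spef2 read 6.08, 5.77, 6.07 and 5.99 in stabilized and 6.39, 6.24, 6.63 and 6.41 in knockout lungs, and fell by 0.44 ± 0.09 (SE, limma adjusted p = 0.011). Spef1l, whose mean was also below the 95th percentile of olfactory receptor genes, fell by 0.27 ± 0.07 (SE, limma adjusted p = 0.026). Of 8 fits with an array omitted 4 did not make that call. They were those without stabilized replicate 1 or 2 or knockout replicate 1 or 3 (highest limma adjusted p = 0.090).

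Spef1 and Spag6 did not follow the other central pair genes past the threshold. Spef1, a microtubule-binding protein that bundles the central pair, read 7.63, 7.42, 7.51 and 7.51 in stabilized and 7.32, 7.45, 7.28 and 7.66 in knockout lungs. It was the member with a positive difference, at 0.09 with an interval from -0.10 to 0.28, and it also overlapped between groups. Spag6 read 5.30, 4.97, 5.26 and 5.41 in stabilized and 5.23, 5.42, 5.13 and 5.44 in knockout lungs, a difference of -0.07 with an interval from -0.28 to 0.15. The mouse genome holds a close copy, Spag6l, which is outside the set and was looked up after the values of Spag6 were seen. Spag6l read 5.82, 6.02, 5.93 and 6.16 in stabilized and 6.86, 6.85, 6.74 and 6.81 in knockout lungs. The groups did not overlap, and Spag6l fell by 0.83 ± 0.08 (SE, limma adjusted p = 3.1e-05).

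The last 4 members all fell. Ccdc39 and Ccdc40 form the ruler that sets the spacing of inner arms and spokes along the doublet. Ccdc39 read 5.24, 5.61, 5.40 and 5.49 in stabilized and 6.52, 6.19, 6.26 and 6.34 in knockout lungs, and fell by 0.89 ± 0.09 (SE, limma adjusted p = 6.7e-05). Ccdc40 read 5.71, 5.58, 5.75 and 5.68 in stabilized and 6.11, 6.34, 6.23 and 6.38 in knockout lungs, and fell by 0.59 ± 0.07 (SE). Ak7, an adenylate kinase of motile cilia, read 5.84, 5.97, 5.63 and 5.54 in stabilized and 6.74, 6.61, 6.65 and 6.87 in knockout lungs. It fell by 0.97 ± 0.10 (SE, limma adjusted p = 5.3e-05), a size like that of Hydin. Cdhr3 is a cadherin of the ciliated cell surface and not an axoneme protein, and it serves as the receptor of rhinovirus C in people. Its values were 6.10, 6.46, 6.03 and 6.39 in stabilized and 7.40, 7.40, 7.47 and 7.60 in knockout lungs, and it was 2.34-fold lower (difference -1.22 ± 0.10, SE, limma adjusted p = 1.1e-05).

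**Figure D2:**
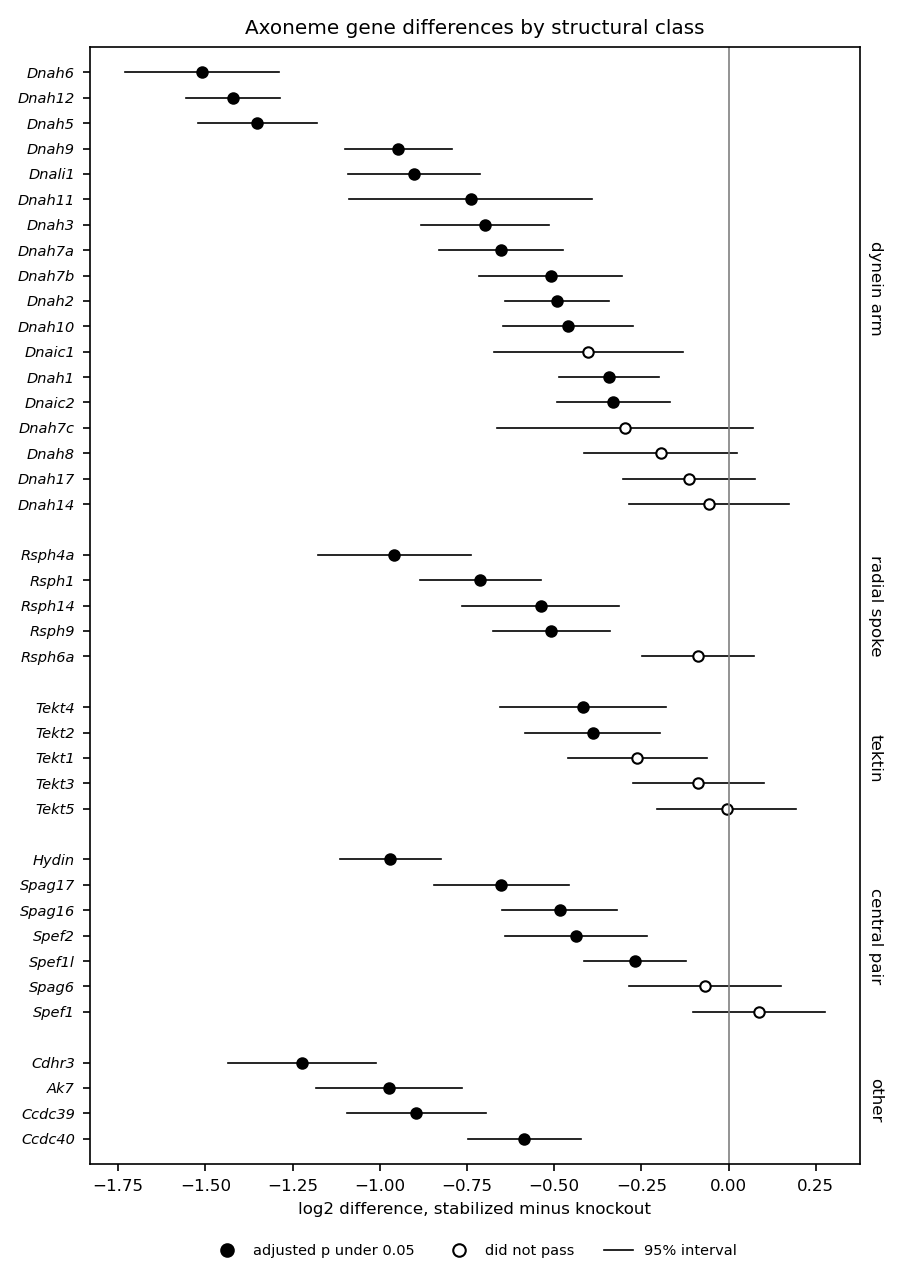
Log2 difference, stabilized minus knockout, of each axoneme gene with its 95% interval from limma. Filled points passed at an adjusted p under 0.05 and open points did not. The filled points run from -1.51 for Dnah6 to -0.27 for Spef1l, and Spef1 at 0.09 is the point to the right of 0.

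The pattern did not rest on 1 array. Among the 28 called genes, the highest stabilized array was replicate 3 in 10 genes, replicates 2 and 4 in 7 each and replicate 1 in 4. The highest knockout array was replicate 3 in 11 genes, replicate 4 in 9, replicate 1 in 6 and replicate 2 in 2. Knockout replicate 2 was the lowest of its group in 13 genes. In 8 fits that each omitted a different array, 25 to 29 axoneme genes were lower. The share of all genes called lower in these fits is not given here. Of the 28 calls 25 held in every one of these fits, the exceptions being Spef1l, Tekt2 and Tekt4. Over all alternatives, which include the fits on the arrays of 1 sex pattern only, 13 of the 28 calls were kept in every setting.

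Most members have 1 probe set, and the 7 with several allowed the same transcript to be read more than once. For Dnah3, an inner-arm heavy chain, the brightest probe set read 7.51, 7.46, 7.79 and 7.67 in stabilized and 8.23, 8.24, 8.45 and 8.30 in knockout lungs, a difference of -0.70 ± 0.08 (SE, limma adjusted p = 2.6e-04). All 33 of its probe sets were lower in stabilized lungs, and 33 passed when probe sets were tested singly, where 5.18% of all probe sets were lower. Their differences ran from -1.47 to -0.33 with a median of -1.001, so the brightest gave a smaller decrease than most. Spef2 showed the same order. Of its 22 probe sets 21 passed and were lower, with a median of -0.72 against -0.44 for the brightest. The 3 probe sets of Dnah6 gave -1.42 to -1.65 and both of Dnah12 gave -1.39 and -1.42, while the pair for Dnah17 gave -0.11 and 0.01 and did not pass. For Dnah10 4 of 5 probe sets passed as lower, and the 5 differences ran from -0.99 to -0.28. For Dnah7b 1 of 2 passed, at -0.51, and the other gave -0.05. Probe sets of 1 transcript share their arrays and are not replicates.

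**Figure D3:**
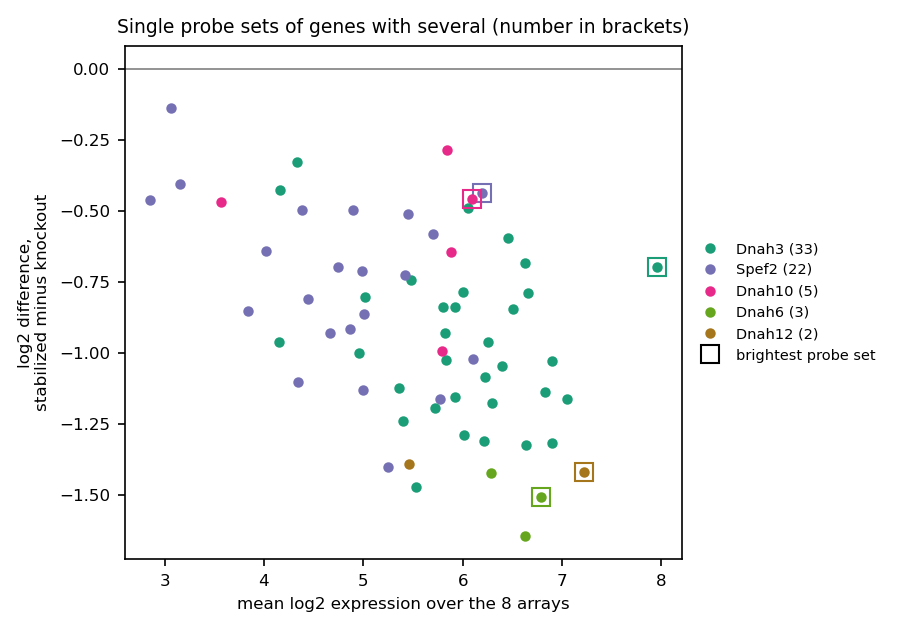
Each point is 1 probe set of Dnah3, Spef2, Dnah10, Dnah6 or Dnah12, at its mean log2 expression over the 8 arrays and its log2 difference, stabilized minus knockout. Squares mark the brightest probe set, which represents the gene elsewhere. All 33 points of Dnah3 and all 22 of Spef2 lie below 0, and their squares at -0.70 and -0.44 lie above the medians of -1.001 and -0.72.

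Promoters were read for short motifs because axoneme genes are known targets of RFX factors, which bind the X-box, and of the forkhead factor Foxj1, while TCF/LEF factors are the DNA-binding partners of beta-catenin. Windows from 250 bases before to 50 after the start, from RefSeq on GRCm38.p6, were held for 36 of the 39 genes. The X-box core GTTGCC was found on either strand in 13 of 36 genes (36.1%), against 14.1% of 27025 genes with a window and 14.0% of those on the array. Of the 13 genes 10 were called lower in stabilized lungs, beside 25 of the 36 genes with a window (69.4%). The full X-box, GTTNCC and GGNAAC with any 2 bases between, was found in this exact form in 0 of 36 against 0.529% of all genes. Looser forms of it were not searched. The forkhead motif GTAAACA was found in 3 genes (8.33%, against 4.05%), namely Ak7, Dnah17 and Tekt3, of which 1, Ak7, was called lower. The TCF/LEF motif CTTTGAT was found in Dnah5 and Dnali1 (5.56%, against 4.29%), both called lower. A gene with several windows was counted once if any held the motif, and a match in these letters is a description only.

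The following stretches end before the transcript start and show, 5′ to 3′ on the gene's strand, the core in capitals in 5 lower genes and in Tekt1 and Spag6, which did not pass, and the TCF/LEF motif in Dnah5. On the opposite strand the core appears as GGCAAC. They lie at chr8:110266924-110266976 (+) for Hydin, chr11:114727353-114727418 (+) for Dnaic2, chr1:69826827-69826912 (+) for Spag16, chr4:126325739-126325824 (-) for Tekt2, chr12:33092876-33092921 (-) for Cdhr3, chr11:72361883-72361937 (-) for Tekt1, chr2:18698945-18699021 (+) for Spag6 and chr15:28203516-28203563 (+) for Dnah5, all on GRCm38.p6.
Hydin: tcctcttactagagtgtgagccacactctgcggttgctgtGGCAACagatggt
Dnaic2: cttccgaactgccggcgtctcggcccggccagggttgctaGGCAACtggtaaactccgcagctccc
Spag16: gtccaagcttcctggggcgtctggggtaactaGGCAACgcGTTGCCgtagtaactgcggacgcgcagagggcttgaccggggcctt
Tekt2: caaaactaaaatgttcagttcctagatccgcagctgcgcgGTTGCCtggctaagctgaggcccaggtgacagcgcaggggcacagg
Cdhr3: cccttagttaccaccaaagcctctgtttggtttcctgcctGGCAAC
Tekt1: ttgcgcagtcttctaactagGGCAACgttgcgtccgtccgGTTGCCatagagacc
Spag6: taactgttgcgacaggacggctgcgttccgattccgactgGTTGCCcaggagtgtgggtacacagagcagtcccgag
Dnah5: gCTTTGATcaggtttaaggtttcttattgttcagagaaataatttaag

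In these stretches Spag16 and Tekt1 hold the core on both strands, 2 bases apart in Spag16. The core begins 13 bases before the start in Hydin and 6 before it in Cdhr3. It stands as well in the stretch of Spag6, whose values overlapped between groups.

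Other genes of the axoneme and its assembly were counted in 3 lists. Dynein arms are preassembled in the cytoplasm by dedicated factors, of which 6 of 15 passed as lower, 0 as higher and 9 in neither direction (median difference -0.12). Zmynd10, Pih1d2 and Lrrc6 fell by 0.85 ± 0.08, 0.65 ± 0.06 and 1.02 ± 0.10 (SE, n = 4 per group). A list of 18 genes held those of outer-arm docking and the nexin-dynein regulatory complex, which tether arms and doublets. It also held some dynein subunits, among them Wdr63 and Dynlrb2. Of these 18 genes 11 fell, 0 rose and 7 did not pass (median -0.44). Drc3, Wdr63 and Dynlrb2 fell by 0.69 ± 0.06, 0.84 ± 0.09 and 0.89 ± 0.09 (SE). Of 30 genes of doublet inner proteins and further cilium proteins such as those of the central pair, 20 fell, 0 rose and 10 did not pass (median -0.47). Cfap54, Cfap206 and Nme5 fell by 1.39 ± 0.09, 1.18 ± 0.06 and 1.07 ± 0.07 (SE). At these sizes they sit within the range of the heavy chains.

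Cytoplasmic dynein carries cargo along microtubules in all cells. The list of cytoplasmic dynein and dynactin did not include Dynlrb2, which was counted above. Of its 18 genes 0 fell, 2 rose and 16 did not pass (limma), with a median of 0.12. Dynll1, a light chain, rose by 0.40 ± 0.10 (SE, limma adjusted p = 0.022), and Dynlt3 rose by 0.27 ± 0.08 (SE, limma adjusted p = 0.049). With an array omitted, the call of Dynlt3 held only without stabilized replicate 4, and that of Dynll1 was lost without stabilized replicate 2 or knockout replicate 1 (highest adjusted p = 0.053). Dync2h1, the motor of retrograde transport inside cilia, gave -0.25 ± 0.08 (SE, limma adjusted p = 0.066). It was called lower without stabilized replicate 2 and under both filters on dim genes, which makes 1 lower gene in this list.

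Markers of the cells that carry cilia, and of other airway and immune cells, moved beside the axoneme genes. Of 18 ciliated cell markers outside the set 13 fell, 0 rose and 5 did not pass (median -0.45), and their mean level was 6.58 to 6.67 in stabilized and 7.11 to 7.16 in knockout arrays. Tmem212, Ccdc153 and Cdhr4 fell by 1.24 ± 0.08, 1.04 ± 0.08 and 0.71 ± 0.07 (SE). Foxj1, the transcription factor that drives motile ciliogenesis, read 6.27, 6.17, 6.31 and 6.53 in stabilized and 6.89, 6.89, 7.02 and 6.95 in knockout lungs, a difference of -0.62 ± 0.08 (SE). Of 12 club cell markers 10 fell, 0 rose and 2 did not pass, with a mean level of 8.82 to 8.92 against 9.57 to 9.72. Scgb1a1, the main club cell secretory protein, gave -0.51 ± 0.08 (SE), and Scgb3a2, Chad and Cyp2f2 gave -1.70, -1.66 and -0.92. The mean level of 6 B cell markers, of which 6 fell, was 5.38 to 5.50 in stabilized and 6.53 to 6.97 in knockout arrays, and that of 8 T and NK cell markers, of which 7 fell, was 5.83 to 6.16 against 6.67 to 7.48. The part of these cell types in the axoneme result was not tested.

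Of 9 alveolar type 2 markers 6 rose and 0 fell, a count of 3 without stabilized replicate 1 or knockout replicate 2, 3 or 4, and of 4 endothelial and 7 alveolar type 1 markers 0 passed in either direction (limma). Basal cell markers gave 1 of 6 lower (0 without stabilized replicate 1 or 2 or knockout replicate 1 or 3), cardiac muscle 3 of 6 (1 without knockout replicate 3), and ependymal and brain markers 1 of 4. Of 27 male germ cell genes, whose products include those of the sperm flagellum, 1 passed as lower and 0 as higher, but only 4 of the 27 were above the 95th percentile of olfactory receptor genes. Their median was -0.03, or 0.003 after repeated quantile normalization, with a mean level of 4.40 to 4.49 in stabilized and 4.55 to 4.58 in knockout arrays.

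**Figure D4:**
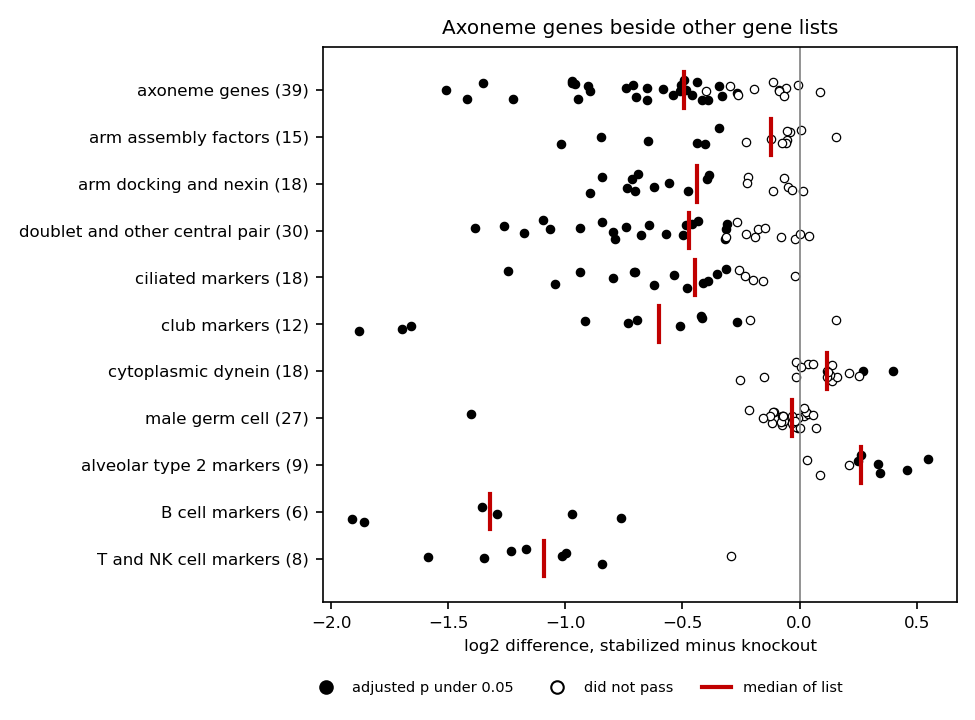
Log2 differences, stabilized minus knockout, of the 39 axoneme genes and of 10 other gene lists, 1 point per gene with the number of genes in brackets. Filled points passed at an adjusted p under 0.05, open points did not, and red bars are list medians. Medians are -0.49 for axoneme genes, 0.12 for cytoplasmic dynein and -0.03 for male germ cell genes (0.003 after repeated quantile normalization).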

How the data were processed

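Per the submitters' processing notes, the authors normalized the arrays by RMA in affy (versions not stated), and the deposited values are log2 expression per probe set and array (34760 probe sets, 8 arrays). RMA subtracts background, quantile-normalizes and summarises probes, which compresses dim genes. Symbols came from the platform annotation: 21640 probe sets had 1 symbol, 1321 several and 11799 none, and only the first kind was used. Each gene was represented by its brightest probe set over the 8 arrays. The comparison was fitted over all 19937 genes with limma 3.58.1 (R 4.3.3; lmFit, eBayes, no covariate, no filter), with Benjamini-Hochberg adjustment and a threshold of 0.05. Errors are moderated standard errors or, for group means, SD. The fit was run on simulated data drawn independently for each gene. That check does not cover genes that move together or effects of sex or array. Members and lists were chosen with earlier results of these data known. Values in every array are given for members and genes named by a fixed rule, plus Dnah6, Dnah12, Dnah3, Dnah7c, Dnah14 and Spag6l, chosen after their values were seen. Comparison lists are described by up to 3 members with the smallest p. The labels call the replicates biological. The number of arrays, 4 per group, limits the precision. Alternatives were 2 scalings, 2 probe set rules, 2 filters, 2 priors, covariates, and subsets of arrays. The probes' genome build is not given in the sources used here.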

Additional observations from a re-analysis of the deposited data

Results flagged for a closer look

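In 2 of the 78 groups of 4 arrays checked, 1 array stood far from the other three, a number that chance alone can give, since it flags about 1 group in 20. Dnah1 read 5.54 in stabilized replicate 4 against 5.37 to 5.38 in the other stabilized arrays. Tekt2 read 6.08 in knockout replicate 2 against 5.73 to 5.78 in the other knockout arrays.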

How the results depend on the processing

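With each array left out in turn, the count over all genes ran from 1216 (without stabilized replicate 1; 1235 without knockout replicate 3) to 1839, and that of lower tektins from 0 to 2. Repeated quantile normalization left 0 tektins lower. A filter at the median level of all genes kept only 7 members, of which 6 were lower (5 dynein arm, 0 central pair and 1 other) with a median of -1.22. A filter at the olfactory receptor level left 2 central pair genes lower. The share of all genes called lower in these filtered fits is not given here, and the share from the main fit does not apply to them. The arrays matching the recorded sex, 2 per group, gave 354 genes over all, 16 axoneme genes, 7 dynein arm, 0 tektin and 2 central pair genes. The arrays against it gave 670, 17, 2 radial spoke, 0 tektin and 2 central pair genes. The labels do not state whether replicate numbers pair the samples. Correlations of deviations between arrays of the same number ran from -0.01 to 0.08, which cannot exclude a pairing. With the replicate number as a block 1828 genes were called and 28 axoneme genes were lower, Dnaic1 gained and Spef1l lost. Sign changes were seen only in genes that did not pass. Tekt5 gave 0.0276 after median-centring, 0.0402 after repeated quantile normalization, 0.13 with the arrays against the recorded sex and -0.0618 to 0.0875 with 1 array left out. Spag6 gave 0.0046 after repeated quantile normalization, 0.1742 with the arrays against the recorded sex and -0.1259 to 0.0204 with 1 array left out. With the arrays against the recorded sex Dnah14, Dnah17 and Rsph6a gave 0.0682, 0.0249 and 0.0412, and with those matching it Spef1 gave -0.0942. Dnah14 gave -0.178 to 0.0141 with 1 array left out. Apart from the filters and subsets, which tested fewer genes or arrays, the cause of these changes was not tested. The direction of the 28 called genes held in every setting that tested them. In fits on fewer arrays it could not change, since the groups did not overlap in these genes.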

Other observations

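Among genes listed as male germ cell genes, Spata18 was the 1 that passed, with means of 6.53 ± 0.06 in the stabilized and 7.93 ± 0.08 in the knockout group (SD, n = 4), a difference of -1.40 ± 0.06 (SE, limma adjusted p = 4.2e-07). That is a decrease of the size of Dnah5 and Dnah12, and the call held in 8 of 8 fits that left out 1 array. Aqp4, a water channel listed with the ependymal and brain markers, gave -0.45 ± 0.07 (SE, limma adjusted p = 0.0020), while Gfap, Syn1 and Snap25 of the same list gave -0.02, -0.09 and -0.05 and did not pass.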
